A study of Arabidopsis thaliana with 12 samples.

Results

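HRGP1 (AT3G54590) encodes a hydroxyproline-rich glycoprotein, and it was the 1 extensin-type gene that could be followed by name on these arrays. Genes were sought among the probe sets that name a single gene, by the symbol HRGP1, a symbol of EXT and a number, or a gene name with the word extensin but not leucine-rich, at a mean level of at least 5.5 on the log2(intensity + 7) scale over the 12 arrays. The annotation tables give symbols and alternative names but no longer descriptions, so the last criterion was read from the alternative names. Of 26 genes in the gene table that meet the name criteria, 1 was paired with a single-gene probe set, out of 13286 genes so paired in the whole series. That gene was HRGP1, with a mean level of 7.73; no other gene lay just below the minimum. Genes that the tables give by locus only could not be held against the extensin criterion, so further genes that meet it may have been missed, and the values below describe a single gene and not the family.

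RNA from whole seedlings of Arabidopsis thaliana, ecotype Columbia, was hybridised to Affymetrix ATH1 arrays, with 3 arrays in each of 4 groups. The groups were dark-grown seedlings that overexpress MINI ZINC FINGER 1 (MIF1OE), dark-grown seedlings with the empty vector, light-grown MIF1OE seedlings and light-grown vector seedlings. MIF1 is a small zinc finger protein that lacks a homeodomain, and the 35S promoter drives the transgene in most tissues. All plants, controls included, were T2 transformants selected on 50 µg/mL hygromycin, and they were 7 days old after 2 days of cold stratification and growth at 22 °C. The light cycle was 16 h on and 8 h off, and dark-grown seedlings were lit for 2 h to start germination and then kept dark. The vector samples of each condition came from 3 independent lines, numbered 1, 4 and 7. The MIF1OE samples came from 2 lines, 124 for replicates 1 and 2 and 127 for replicate 3, so 2 of the 3 samples share a transformant. The labels do not say whether those 2 were separate cultures, and p-values measure the spread between these samples only. No probe set was named as MIF1 (0 by symbol or alternative name), so the level of the transgene was not checked here. Arrays of a group correlated with r between 0.922 and 0.962 across probe sets, and 0 of 66 pairs of arrays held identical values.

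Extensins are rod-like glycoproteins that are secreted into the plant cell wall. Their proline residues are converted to hydroxyproline by prolyl hydroxylases in the secretory pathway, and glycosyltransferases then add short arabinose chains to the hydroxyprolines and galactose to neighbouring serines. In the wall, peroxidases join extensin molecules through their tyrosines, which makes a network that is linked to the arrest of cell expansion and to wall strength. Many Arabidopsis extensin genes are expressed in roots, where extensin modification is needed for normal root hair growth. The coding repeats of these genes resemble each other. HRGP1 was measured by 1 probe set with the suffix x_at. In the naming scheme of the arrays, that suffix marks probe sets with probes that may also bind other transcripts, so the HRGP1 values may hold signal from similar sequences, and this was not tested.

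HRGP1 was brightest in dark-grown MIF1OE seedlings and dimmest in dark-grown vector seedlings. Its intensity in dark-grown MIF1OE seedlings was 820 and 414 in line 124 and 490 in line 127. In dark-grown vector seedlings it was 103 in line 1, 125 in line 4 and 63.2 in line 7. These 2 groups did not overlap, and the dimmest MIF1OE array stood well above the brightest vector array. In light-grown MIF1OE seedlings the intensity was 286 and 126 in line 124 and 145 in line 127. In light-grown vector seedlings it was 206 in line 1, 287 in line 4 and 124 in line 7. The light-grown groups covered almost the same range.

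**Figure D1:**
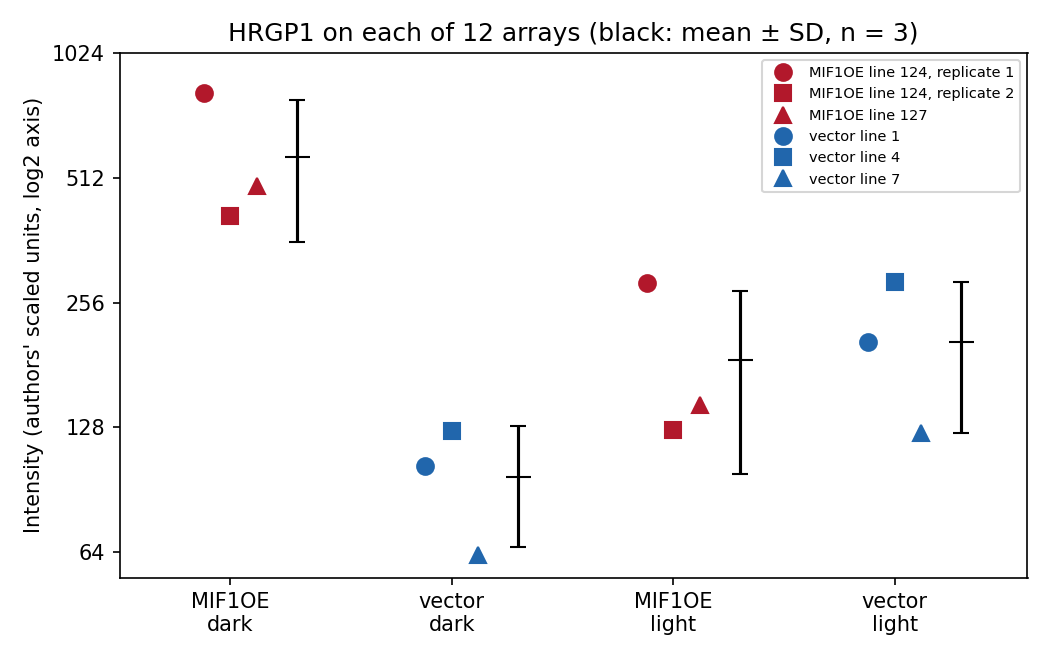
HRGP1 intensity on each of the 12 arrays, in the authors' scaled units on a log2 axis, by group; each symbol is an array, coloured by genotype and shaped by plant source, and the black mark is the group mean ± SD (n = 3). The 3 dark-grown MIF1OE arrays lie between 414 and 820, above all the other arrays, and the dark-grown vector arrays lie between 63.2 and 125.

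The mean intensity was 575 ± 215 in dark-grown MIF1OE seedlings, 97.3 ± 31.5 in dark-grown vector seedlings, 186 ± 87.1 in light-grown MIF1OE seedlings and 206 ± 81.4 in light-grown vector seedlings (SD, n = 3 each). On the log2 scale the SD within a group was of similar size throughout, at 0.51 and 0.47 in dark-grown MIF1OE and vector seedlings and at 0.61 and 0.59 in the light-grown groups. By mean level the order was dark-grown MIF1OE at 9.12, light-grown vector at 7.66, light-grown MIF1OE at 7.50 and dark-grown vector at 6.66. The 2 light-grown groups, neighbours in this order, did not differ beyond their spread. Light-grown MIF1OE and dark-grown vector seedlings came close to each other, with a lowest value of 126 and a highest value of 125.

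The comparison of genotypes in darkness asked whether MIF1 overexpression alters the transcript in etiolated seedlings. HRGP1 rose in dark-grown MIF1OE seedlings, to a mean log2 level of 9.12 against 6.66 in vector seedlings. The log2 fold change was 2.47 (SE 0.38, 95% interval 1.64 to 3.30, n = 3 per group, limma adjusted p = 0.002203), a 5.53-fold difference on this scale. In the same comparison 6.14% of the 15922 probe sets tested were called higher, and 71 had a larger rise than HRGP1. All 3 MIF1OE arrays, from both lines, stood above all 3 vector arrays. By an exact two-sided permutation test of this gene alone p was 0.1, the smallest that 3 against 3 arrays allow. The call was kept under all 21 alternative settings, with log2 fold changes between 2.18 and 2.67 and adjusted p up to 0.01247.

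In light-grown seedlings the same comparison gave no call for HRGP1. The log2 fold change of MIF1OE over vector was -0.16 (SE 0.38, 95% interval -0.99 to 0.67, limma adjusted p = 0.9446), where 0.986% of probe sets were called in either direction, 0.659% higher and 0.327% lower. The interval includes 0 and differences of either sign, and the sign of the estimate turned without MIF1OE replicate 2 (0.07) or vector replicate 2 (0.12) of the light arrays. The exact permutation p of the levels was 0.9.

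**Figure D2:**
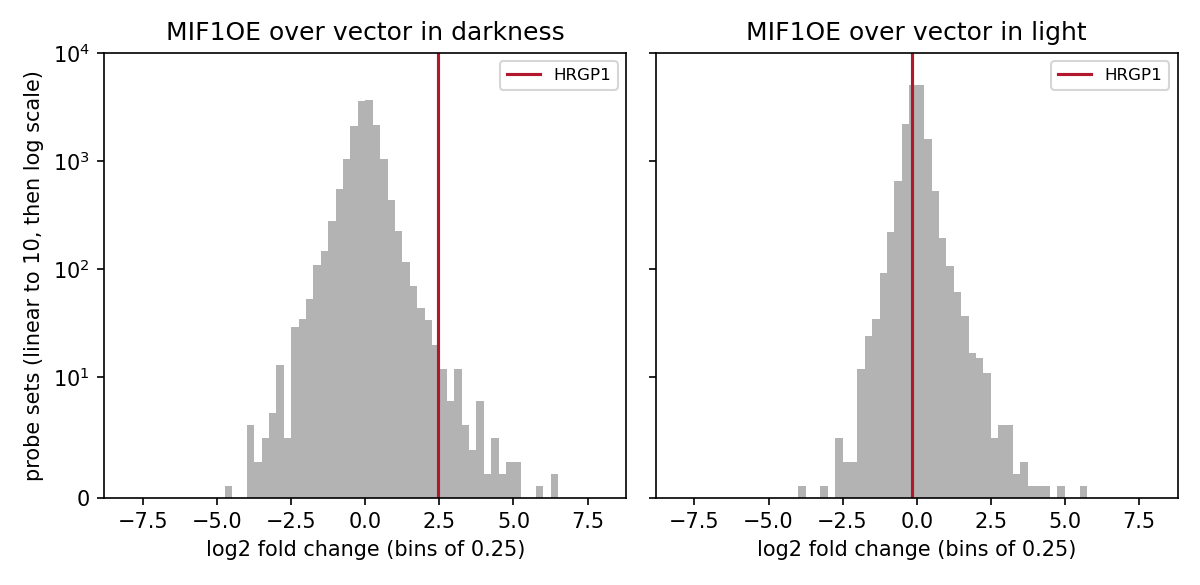
Distribution of the log2 fold changes of MIF1OE over vector seedlings for the 15922 probe sets tested, in darkness (left) and in light (right), in bins of 0.25, with the count on an axis that is linear up to 10 and logarithmic above; the red line is HRGP1. HRGP1 lies in the upper tail in darkness (2.47) and near the centre in light (-0.16).

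The difference between these 2 genotype effects was tested directly as the interaction. The effect of MIF1OE on HRGP1 was larger in darkness by 2.62 on the log2 scale (SE 0.54, 95% interval 1.45 to 3.80), and of all probe sets tested 35 had a larger positive difference. The limma adjusted p was 0.05043, just outside the threshold of 0.05, so HRGP1 was not called, where 0.741% of probe sets were called in either direction and 0.433% with a higher effect in darkness. A replicate block by plant source compares darkness and light within each source. In it the 2 samples of line 124 counted as separate sources, paired by replicate number, although they share a transformant. With this block the same difference was called (SE 0.18, limma adjusted p = 0.002585). It was also called with arrays centred on their median (adjusted p = 0.03615), with quantile normalization (0.03412), with a pseudocount of 32 (0.04172) and with an intensity trend in the variance (0.04695). Without light MIF1OE replicate 1 (adjusted p = 0.03408) or light vector replicate 3 (0.02931) it was called as well. Under the other 13 of 20 alternatives it was not called, and without single arrays the limma adjusted p reached 0.1269.

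Darkness and light were next compared within each genotype. In MIF1OE seedlings HRGP1 rose in darkness, with intensities of 414 to 820 in darkness and 126 to 286 in light, groups that did not overlap. The log2 fold change of darkness over light was 1.62 (SE 0.38, 95% interval 0.79 to 2.45, limma adjusted p = 0.0083), where 12.4% of probe sets were called higher. In vector seedlings the values ran the other way, 63.2 to 125 in darkness and 124 to 287 in light. Here the highest dark and the lowest light array overlapped slightly. The log2 fold change was -1.0 (SE 0.38, 95% interval -1.83 to -0.17), which was not called (limma adjusted p = 0.06604), where 13.6% of probe sets were called lower. With plant source as a replicate block it was called (SE 0.13, adjusted p = 0.001445), as it was with arrays centred on their median (adjusted p = 0.04388) and with quantile normalization (0.04398). It was also called without light MIF1OE replicate 1 (adjusted p = 0.04759) or light vector replicate 3 (-1.31, 0.03115). Under the other 16 of 21 alternatives it was not called. Without single arrays the log2 fold change lay between -1.31 and -0.73, with limma adjusted p up to 0.2154. The comparisons of darkness and light share arrays with those between genotypes.

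Much of the spread of HRGP1 within a group followed the plant source, here the line and, for line 124, also the replicate number. The labels do not say what dark and light samples of line 124 with the same replicate number share. Line 124 replicate 1 was the brightest MIF1OE sample in darkness (820) and in light (286). Line 124 replicate 2 was the dimmest in darkness (414) and in light (126). Among vector lines, line 4 was brightest in darkness (125) and in light (287), and line 7 was dimmest in darkness (63.2) and in light (124). The order of the 3 sources was thus the same in darkness and in light for both genotypes. A separate order for lines cannot be drawn for MIF1OE, since the 2 samples of line 124 lie on either side of line 127.

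Within each source, the difference between darkness and light varied little among the samples of a genotype. In MIF1OE seedlings darkness minus light was 1.5 and 1.66 on the log2 scale for the samples of line 124 and 1.71 for line 127, a mean of 1.62 ± 0.11 (SD, n = 3). In vector seedlings it was -0.95 for line 1, -1.15 for line 4 and -0.90 for line 7, a mean of -1.0 ± 0.13 (SD, n = 3). All 3 MIF1OE sources had more HRGP1 signal in darkness, and all 3 vector sources had less. The 2 sets of differences lay 2.62 apart, and an exact two-sided permutation test gave p = 0.1, the smallest possible with 3 sources against 3. Over all probe sets, deviations from the group means correlated between the samples of a source with r between 0.233 and 0.339 for the 6 pairs. Other pairings were not computed, so these correlations have no reference value.

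**Figure D3:**
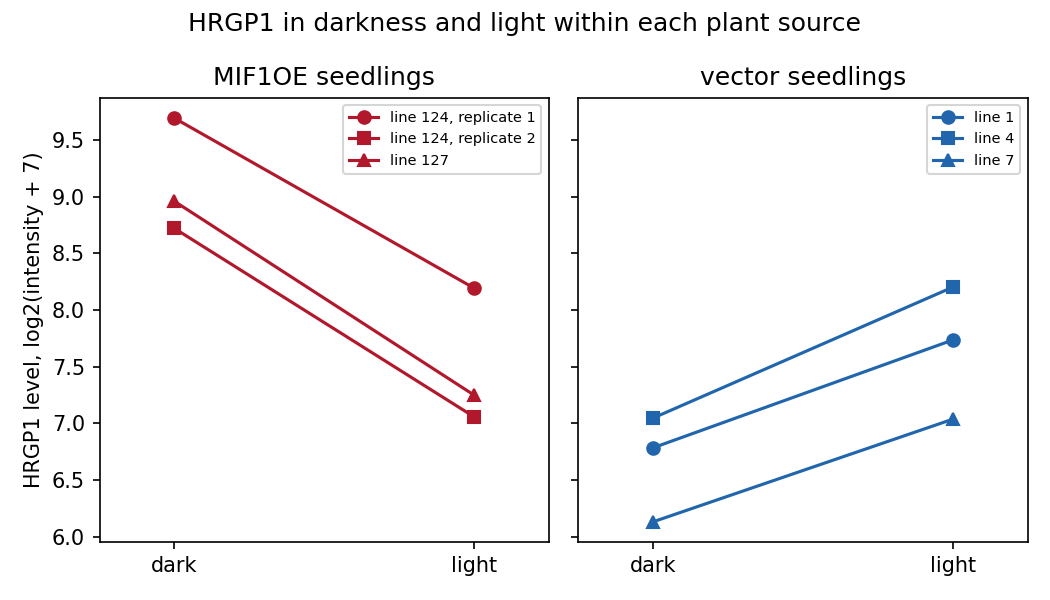
HRGP1 level, log2(intensity + 7), in darkness and in light for each plant source, MIF1OE seedlings on the left and vector seedlings on the right; a line joins the arrays of a source. The lines of a genotype run almost parallel, with darkness above light in the 3 MIF1OE sources and below light in the 3 vector sources.

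The genes whose pattern over the 12 arrays was closest to that of HRGP1 were sought among 8734 other single-gene probe sets, by the root mean square difference of log2 levels after subtracting each gene's mean. The closest was AT3G19430 (0.32), followed by AT3G54580 (0.38) and AT1G23720 (0.38), against a median of 1.04 over all candidates and a root mean square of 0.99 for HRGP1 about its own mean. The tables name these genes by locus only, so whether they meet the extensin criterion was not tested, and any of them could be a gene of the same kind. They were chosen for their likeness, so their values are given as a description without a test.

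AT3G54580 is the protein-coding gene next to HRGP1 in the gene table. Its intensity was 139, 75.0 and 111 in dark-grown MIF1OE seedlings (replicates 1 to 3), against 6.22, 38.3 and 8.48 in dark-grown vector lines 1, 4 and 7. In light it was 36.3, 21.7 and 17.3 in MIF1OE seedlings, against 42.6, 47.3 and 24.2 in vector seedlings. The dark-grown groups were separate and the light-grown ones overlapped, as for HRGP1. The next gene on that side, AT3G54570, was dim, between 0.43 and 8.25 on all arrays, and was not tested. On 2 of the 3 dark-grown vector arrays AT3G54580 was about as dim, so its level there depends on the pseudocount and no fold is given.

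AT1G23720 is also measured by an x_at probe set. Its intensity was 573, 276 and 303 in dark-grown MIF1OE seedlings, against 61.5, 184 and 73.7 in dark-grown vector lines 1, 4 and 7. In light it was 234, 98.1 and 147 in MIF1OE seedlings, against 133, 214 and 74.2 in vector seedlings. Line 124 replicate 1 was the brightest MIF1OE sample and line 4 the brightest vector sample in both conditions, as for HRGP1. AT3G19430 had 269, 137 and 223 in dark-grown MIF1OE seedlings, against 35.2, 45.5 and 16.6 in the dark-grown vector lines. In light it had 123, 37.9 and 23.6 in MIF1OE seedlings, against 61.1, 65.5 and 44.1 in vector seedlings. How far probes shared by similar sequences contribute to these likenesses was not tested.

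**Figure D4:**
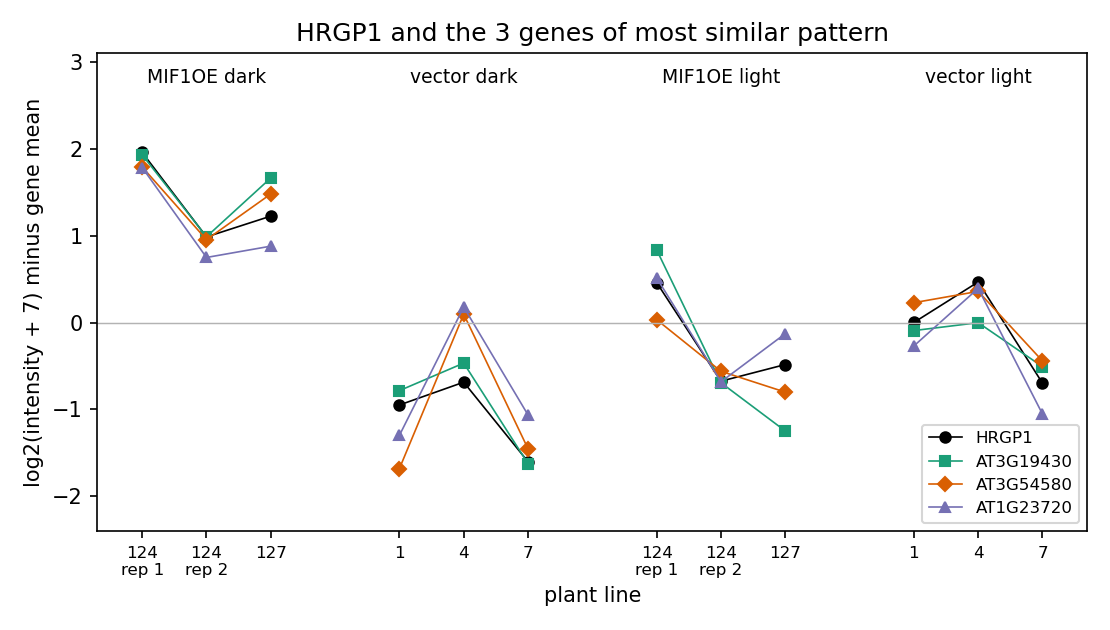
Levels of HRGP1 and of the 3 genes closest to it in pattern, as log2(intensity + 7) minus each gene's mean over 12 arrays, for each array by group and plant line; lines join arrays of a group. For all 4 genes the dark-grown MIF1OE arrays are the highest as a group and the dark-grown vector arrays the lowest.

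Genes of extensin modification were followed from lists of the known pathway. Of 10 genes on the list of glycosyltransferases that act on extensin, 4 had a named probe set. Of these, 2 rose in dark-grown MIF1OE seedlings, where 6.14% of all probe sets tested were called higher. The tables give a gene name for XEG113 only, and the others entered the list by locus. XEG113, which adds arabinose to extensin side chains, had 355, 366 and 342 in dark-grown MIF1OE seedlings, against 196, 200 and 189 in dark-grown vector lines 1, 4 and 7. The groups were narrow and well apart, and the log2 fold change was 0.84 (SE 0.18, limma adjusted p = 0.01084). AT3G01720 had 402, 457 and 414, against 248, 256 and 253, and rose by 0.73 (SE 0.16, limma adjusted p = 0.01252). For both genes the dark-grown groups did not overlap. The share of all probe sets whose groups are separate in this way was not computed.

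AT5G13500 stood at 0.25 (SE 0.25) and AT3G57630 at -0.08 (SE 0.28) and neither passed. The list's median log2 fold change in darkness was 0.49, against 0.00 over all probe sets tested, and 12.9% of all probe sets were called in either direction. In light none of the 4 passed, where 0.986% of all probe sets were called in either direction, so this count is near the background. Their median in light was 0.31, against -0.01 over all probe sets tested. The difference between conditions was 0.52 (SE 0.25) for XEG113 and 0.42 (SE 0.23) for AT3G01720, neither of which passed, so no difference of their genotype effects between conditions was shown.

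Between darkness and light, 2 of the 4 listed genes rose in MIF1OE seedlings, where 12.4% of all probe sets were called higher. In vector seedlings 1 of 4 rose, near the 16.7% of all probe sets called higher. In MIF1OE seedlings AT3G01720 rose by 0.79 in darkness (SE 0.16, limma adjusted p = 0.003391) and XEG113 by 0.63 (SE 0.18, adjusted p = 0.021). The call of XEG113 ended without any one of dark MIF1OE replicates 1 or 2 or light MIF1OE replicates 1 or 2 (adjusted p up to 0.08867), with median centring (0.06222) and with the arrays of that comparison alone (0.05361). In vector seedlings AT3G57630 rose by 1.12 (SE 0.28, limma adjusted p = 0.009816), with 151, 143 and 174 in darkness and 119, 52.5 and 49.2 in light for lines 1, 4 and 7.

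Class III peroxidases include enzymes that join extensins in the wall. Of 15 listed genes 6 had a named probe set, and PRX52 and PER36 fell below the level filter. None of the other 4 (PRXR1, PRX71, PRX72 and PRX25) passed between MIF1OE and vector seedlings in darkness or in light, where 12.9% and 0.986% of all probe sets were called in either direction, so a count of 0 of 4 is near the background. Their median log2 fold change was 0.20 in darkness and -0.08 in light, against 0.00 and -0.01 over all probe sets tested. PRX71 had 2538, 1311 and 1998 in light-grown MIF1OE seedlings, against 735, 1251 and 469 in light-grown vector lines 1, 4 and 7. These groups did not overlap, and the log2 fold change of 1.31 (SE 0.40) did not pass (limma adjusted p = 0.1828). In darkness the PRX71 groups overlapped, with a log2 fold change of 0.90 (SE 0.40, adjusted p = 0.1686). PRX72 and PRX25 instead rose in darkness in both genotypes, where 24.2% of all probe sets in MIF1OE and 30.3% in vector seedlings were called in either direction. PRX25 had 182, 140 and 157 in dark-grown and 25.4, 24.3 and 14.6 in light-grown MIF1OE seedlings, a log2 fold change of 2.57 (SE 0.21, limma adjusted p = 3.756e-05). In vector seedlings it had 140, 114 and 132 in darkness and 46.4, 41.9 and 27.0 in light, a log2 fold change of 1.60 (SE 0.21, adjusted p = 2.978e-04). PRX72, a peroxidase of lignin formation, rose by 2.22 (SE 0.20) in MIF1OE and 2.00 (SE 0.20) in vector seedlings. Listed leucine-rich repeat extensins, prolyl hydroxylases, proline-rich wall proteins and arabinogalactan proteins had 0 named single-gene probe sets and are not analysed here.

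**Figure D5:**
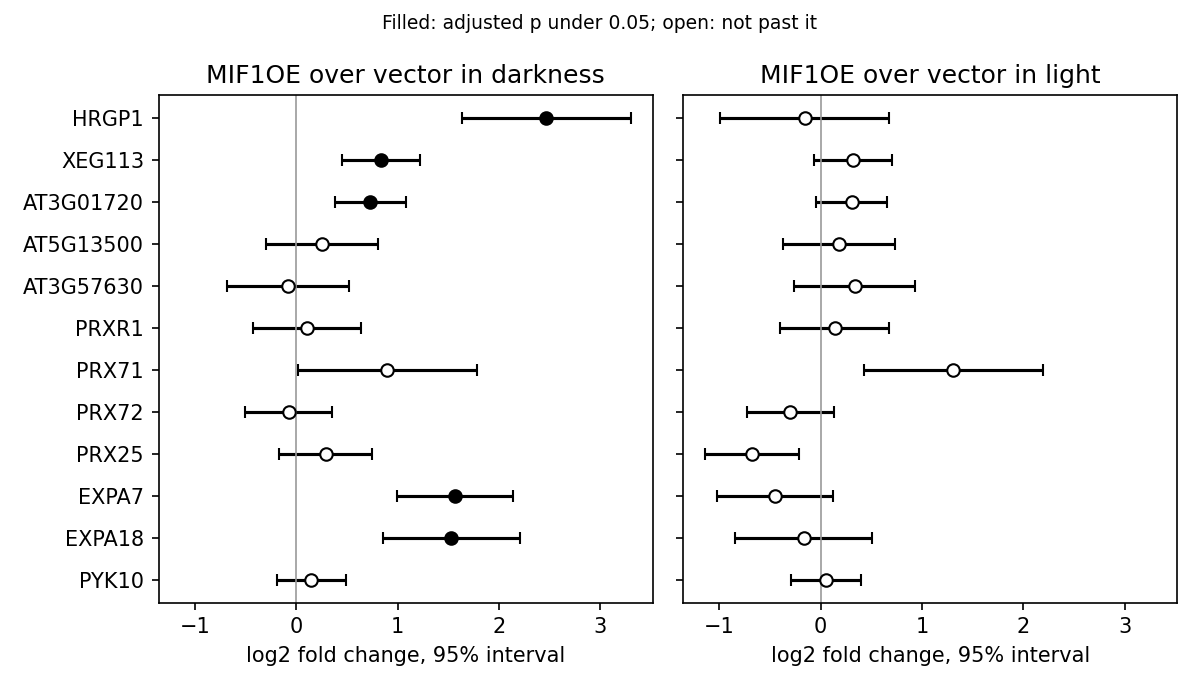
Log2 fold change of MIF1OE over vector seedlings with its 95% interval (limma, n = 3 per group), in darkness (left) and in light (right), for HRGP1, 4 genes of the glycosyltransferase list, 4 peroxidases and 3 root genes; filled points passed an adjusted p of 0.05. In darkness HRGP1 (2.47), XEG113 (0.84), AT3G01720 (0.73), EXPA7 (1.56) and EXPA18 (1.53) passed, where 12.9% of all probe sets were called in either direction. None of the 12 genes passed in light, where 0.986% were called, so the count in light is near the background.

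Whole seedlings hold root, hypocotyl and cotyledon cells, and in such samples fewer cells of a type and less RNA per cell cannot be told apart. Between genotypes in darkness, the root hair markers that could be measured rose as HRGP1 did. Of 31 listed, 2 had a named probe set, EXPA7 and EXPA18, expansins that loosen root hair walls, and neither was at 0 on any array. Their summed intensity was 95.2 to 219 in dark-grown MIF1OE seedlings and 42.8 to 56.7 in dark-grown vector seedlings. In light it was 92.7 to 104 in MIF1OE and 91.9 to 170 in vector seedlings. Both rose in dark-grown MIF1OE seedlings, where 6.14% of all probe sets were called higher, EXPA7 by 1.56 (SE 0.26, limma adjusted p = 0.003248) and EXPA18 by 1.53 (SE 0.31, adjusted p = 0.009054). EXPA7 was dim in dark-grown vector seedlings, at 14.4 to 16.4, so its fold depends more on the pseudocount. Between darkness and light in MIF1OE seedlings, where HRGP1 was called, neither EXPA7 (0.41, limma adjusted p = 0.299) nor EXPA18 (0.91, adjusted p = 0.0504) passed. In vector seedlings EXPA7 fell in darkness (-1.60, limma adjusted p = 9.364e-04), and EXPA18 did not pass (-0.79, adjusted p = 0.07478).

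The order of the samples for HRGP1 and the root hair expansins differed among dark-grown MIF1OE samples and partly matched among dark-grown vector lines. Line 124 replicate 1 in darkness had the highest HRGP1 (820) but the lowest EXPA18 (59.0) and the lowest EXPA7 (36.3) of the dark-grown MIF1OE samples. EXPA18 was 147 in line 124 replicate 2 and 138 in line 127. Among dark-grown vector lines, line 4 had both the highest HRGP1 (125) and the highest EXPA18, at 41.3 against 30.9 in line 1 and 26.3 in line 7, while line 7 had the lowest HRGP1 (63.2) and the highest EXPA7 (16.4). PYK10, the 1 of 13 listed markers of other root cells with a named probe set, had 4904 to 5002 in dark-grown MIF1OE and 4194 to 5010 in dark-grown vector seedlings, a log2 fold change of 0.15 (SE 0.16) that did not pass. The 3 measured green tissue markers of 19 listed (RCA, LHCB4.2 and PRK) summed to 2767 to 4013 in dark-grown MIF1OE and 3623 to 5866 in dark-grown vector seedlings, against 7410 to 8429 and 8491 to 11509 in the light-grown MIF1OE and vector groups. PRK, a Calvin cycle enzyme, was the 1 of these that passed between genotypes in darkness (-1.54, SE 0.24, limma adjusted p = 0.002209), where 6.75% of all probe sets were called lower. The part of tissue makeup in the HRGP1 result was not tested.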

How the data were processed

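Per the submitters' processing notes, the authors used GCOS (Affymetrix software) to compute the deposited values, which are linear intensities per probe set; its version and the genome build are not given in the sources used here. All arrays had a 2% trimmed mean intensity of 150.01, so no further scaling was applied. Levels are log2(intensity + 7), a scale on which changes of dim probe sets are understated. Of 22746 probe sets (64 controls aside), those under the 30th percentile of mean level were dropped, and 15922 were tested. The number of arrays limits the precision.

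Each comparison was a contrast of 4 group means over all 12 arrays in limma 3.58.1 (R 4.3.3, lmFit and eBayes, 8 residual and 4.08 prior degrees of freedom), with Benjamini-Hochberg adjustment over all probe sets tested and a threshold of 0.05. SEs pool the 4 groups. Dark and light samples were paired by line (in line 124, also by replicate number). Deviations of the 6 pairs from their group means correlated with r between 0.233 and 0.339. These correlations came from the same values as the blocked fit, and other pairings were not computed. Plant source then entered as a replicate block in an alternative, fixed between darkness and light and random between genotypes. The other alternatives were pseudocounts of 1 and 32, no filter and a 50th percentile filter, median centring, quantile normalization, a variance trend, only the arrays compared, and leaving out each array.

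Gene names came from the platform annotation, with symbols updated through RefSeq's TAIR10.1 gene table. There, 13513 probe sets named 1 gene and 503 several. HRGP1, the 9 gene lists and the tests were chosen with earlier results of these data known. By rule, the genes named were HRGP1, list members called in a comparison (at most 3 highest and 3 lowest, or the 2 brightest where none was called) and the 3 genes closest in pattern. AT5G13500, PRXR1, PRX71, PRX52, PER36, RCA, LHCB4.2 and the chromosome neighbour AT3G54570 were named after their values were seen.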

Additional observations from a re-analysis of the deposited data

Results flagged for a closer look

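The change of HRGP1 between light and darkness ran in opposite directions in the 2 genotypes: all 3 MIF1OE sources had more signal in darkness and all 3 vector sources had less. The difference was 2.62 on the log2 scale (limma adjusted p = 0.05043 without and 0.002585 with plant source as a replicate block). EXPA18 showed the same opposite directions in all 6 sources, but changed little in line 124 replicate 1 and vector line 4. Its darkness minus light was 0.12, 1.39 and 1.22 in MIF1OE sources. In vector lines 1, 4 and 7 it was -1.35, -0.17 and -0.84. The EXPA18 difference between genotypes was 1.70 (SE 0.44) and did not pass (limma adjusted p = 0.1144). It did pass without dark MIF1OE replicate 1 (2.09, adjusted p = 0.02636). EXPA7 differed by 2.01 (SE 0.37, limma adjusted p = 0.03236), with darkness minus light at -0.09, 0.36 and 0.97 in MIF1OE sources and -2.03, -1.20 and -1.58 in vector lines 1, 4 and 7. Its call ended without dark MIF1OE replicate 2 or 3, light MIF1OE replicate 1 or 3, any dark vector array or light vector replicate 1 (adjusted p up to 0.0831).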

How the results depend on the processing

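HRGP1 stayed called between genotypes in darkness, and between darkness and light in MIF1OE seedlings, under all 21 alternatives each. Without single arrays the difference between darkness and light in MIF1OE seedlings lay between 1.34 and 1.97 (adjusted p up to 0.04345). In light it was called under none of 21, with -0.50 to 0.12 when single arrays were left out. The interaction gave 1 call in place of 0 under 7 of 20 alternatives: with the replicate block (2.62), median centring (2.61), quantile normalization (2.71), a pseudocount of 32 (2.34), the variance trend (2.62), and without light MIF1OE replicate 1 (2.97, adjusted p = 0.03408) or light vector replicate 3 (2.93, adjusted p = 0.02931); over single arrays left out it ran from 2.34 to 2.97, and adjusted p reached 0.1269. For darkness against light in vector seedlings 5 of 21 gave 1 call in place of 0: the replicate block (-1.0), median centring and quantile normalization (-1.09 each), and leaving out light MIF1OE replicate 1 (-1.0, adjusted p = 0.04759) or light vector replicate 3 (-1.31, adjusted p = 0.03115); single arrays left out gave -1.31 to -0.73, with adjusted p up to 0.2154. The replicate block changed no other HRGP1 call. AT3G57630 between genotypes in darkness lay between -0.21 and 0.015 without single arrays, and was above 0 without dark MIF1OE replicate 3. The setting with only the arrays compared was not run for the interaction, which uses all arrays.

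Over all probe sets, calls for the interaction numbered 118, with 211 under the replicate block, 78 with a pseudocount of 1, 63 with the 50th percentile filter (fewer tested) and 58 to 192 without single arrays (at most 75 without dark MIF1OE replicate 1 or 2, light MIF1OE replicate 2, any dark vector array or light vector replicate 1, and 192 without light vector replicate 3). For genotypes in light they numbered 157, with 103 under that filter, 57 with the light arrays alone and 44 to 266 without single arrays (leaving out replicate 1, 2 or 3 of the light MIF1OE arrays gave 67, 266 and 44, and leaving out light vector replicate 2 gave 93); in darkness 2052, with 1052 to 2379 without single arrays (1302 or fewer without any dark MIF1OE array or dark vector replicate 2 or 3); for darkness against light in vector seedlings 4829, with 2975 to 4831 without single arrays (2975 without dark vector replicate 2). Where no cause is given, the cause was not tested.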
